A study of Rattus norvegicus with 48 samples.

Results

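The comparison described here sets 2 distal segments of the rat nephron against each other, the collecting duct and, upstream of it, the thick ascending limb of Henle's loop, by the small RNA of tubules cut from the same animals. It uses every library that the labels assign to the regions Thick Henle Loop and Collecting Duct, which are 6 of the 11 libraries in the deposited table and 24 of its 44 sequencing runs. Each region has 3 libraries, from rat 1, rat 2 and rat 3. All animals were male Sprague-Dawley rats, 6 months old and naive to any exposure, so both groups are untreated tissue, and the region captured sets them apart. Tubules were taken by laser from frozen kidney sections of 8 µm. Antibody fluorescence marked the tubules, with Tamm-Horsfall protein for the limb and aquaporin-2 for the duct. Each library was sequenced on 4 flow cells, A to D, which are repeat runs of 1 library, so n counts rats. The labels do not say how many tubules or animals' sections went into a capture. The series was made to find miRNAs whose release into urine could be traced to a nephron segment. This comparison asks which miRNAs tell these 2 distal segments apart.

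The thick ascending limb reabsorbs salt without water and so dilutes the tubular fluid. It is the segment that makes Tamm-Horsfall protein (uromodulin). The collecting duct sets the final water, salt and acid content of urine, and holds principal cells, which carry aquaporin-2 under the control of vasopressin, beside acid- or base-secreting intercalated cells. A miRNA is a short RNA cut from a hairpin precursor. It guides the silencing complex to messenger RNAs, mainly by base pairing of its seed, bases 2 to 8 from the 5′ end. The arm of the hairpin that is kept in the complex is usually the abundant one.

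The sequences of the miRNAs that separated the segments are shown so that they can be told from their relatives. RefSeq (build GRCr8) gave a mature sequence for 172 of the miRNAs in the table (91.5%) and for 12 of the 14 that passed the test. miR-150-5p and miR-423-3p are named only. Capitals mark the seed. The first 11 were higher in the collecting duct and the last, miR-375-3p, was higher in the thick ascending limb.
miR-31a-5p: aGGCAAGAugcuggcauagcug
miR-205: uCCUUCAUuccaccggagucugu
miR-9a-5p: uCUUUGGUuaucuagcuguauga
miR-182: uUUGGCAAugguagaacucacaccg
miR-141-3p: uAACACUGucugguaaagaugg
miR-423-5p: uGAGGGGCagagagcgagacuuuu
miR-29a-3p: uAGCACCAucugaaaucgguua
miR-92b-3p: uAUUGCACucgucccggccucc
miR-30c-2-3p: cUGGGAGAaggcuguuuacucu
let-7d-3p: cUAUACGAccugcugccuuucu
miR-672-5p: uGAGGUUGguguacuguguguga
miR-375-3p: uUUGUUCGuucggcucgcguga
The 12 sequences carry 12 distinct seeds. Some measured relatives share a seed with them and are needed to read the family results further on.
miR-29c-3p: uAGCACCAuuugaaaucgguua
miR-30c-1-3p: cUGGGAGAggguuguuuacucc
miR-92a-3p: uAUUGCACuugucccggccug
miR-25-3p: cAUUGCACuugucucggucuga
Positions are counted from 1 at the 5′ end, with the base of the first named miRNA first. miR-29a-3p differs from miR-29c-3p only by C10U. miR-30c-2-3p differs from miR-30c-1-3p by A9G, C12U and U22C. Reads that fit near-identical members such as these could be assigned to either, so their separate values are less certain than those of miRNAs without a close copy.

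Between the segments, 14 miRNAs differed at an adjusted p below 0.05, which is 7.45% of all that were tested (limma with the rat as a block, Benjamini-Hochberg adjustment). Of these, 13 were higher in the collecting duct (6.91%) and 1 was higher in the thick ascending limb (0.532%). All 14 had the same sign in 3 of 3 rats and no overlap between the 3 limb and the 3 duct libraries. Over all miRNAs of the table the libraries did not overlap for 55 (29.3%), with the duct higher for 48 (25.5%) and the limb higher for 7 (3.72%). The sign was the same in 3 of 3 rats for 63 miRNAs higher in the duct (33.5%) and 14 higher in the limb (7.45%). For 12 of the 14, every limb run also lay apart from every duct run. The exceptions were let-7d-3p and miR-30c-2-3p. Fitted in the same way on their own 6 libraries, the comparisons of each segment with the proximal tubule gave 32 miRNAs for the limb (17.0%) and 42 for the duct (22.3%).

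The authors' scaling left the whole distribution shifted toward the duct. The median log2 difference, limb minus duct, was −0.36 over all miRNAs of the table, and 66.5% of them were lower in the limb. The median was −0.21 in rat 1, −0.98 in rat 2 and 0.08 in rat 3. Summed values were 143188, 115865 and 171675 in the limb libraries of rats 1, 2 and 3, and 183748, 255518 and 187107 in the duct libraries. Rat 2 therefore had the lowest limb total and the highest duct total. When every library was given the same total, 9 miRNAs were higher in the limb and 11 in the duct. Scaling by the median of ratios gave 9 and 13. The median of all miRNAs then stood at 0.15 and 0.10. The split of 1 against 13 thus holds for the deposited scaling, and each difference below is on it unless another is named. The table holds an estimated 218882 to 1296993 reads per limb library and 631112 to 788818 per duct library.

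**Figure D1:**
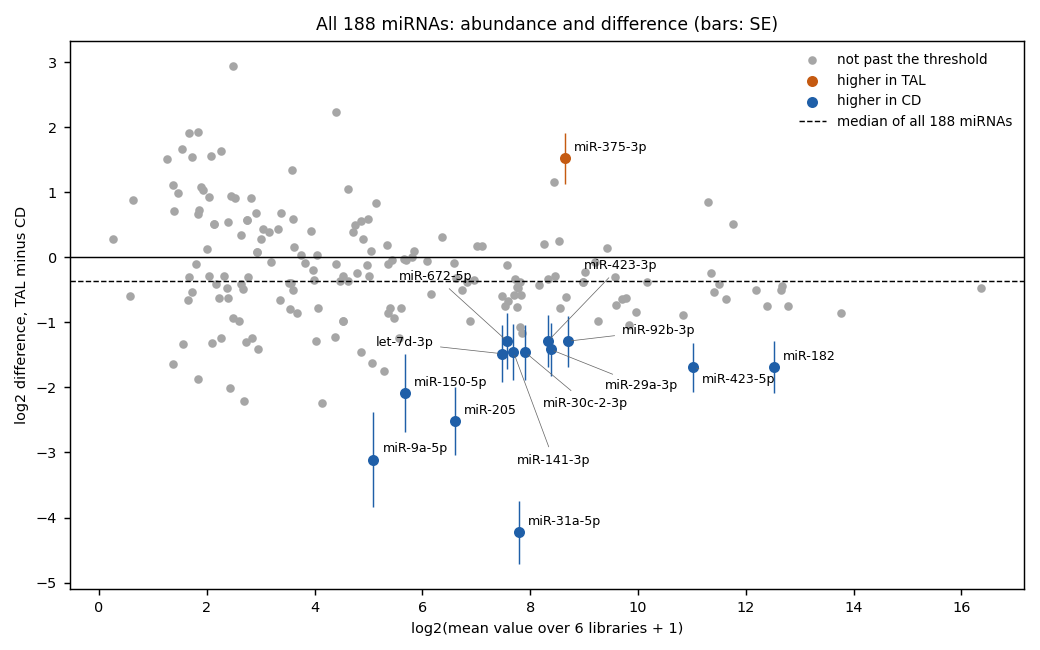
Each point is 1 miRNA of the table, placed by the log2 of its mean value plus 1 over the 6 libraries (x axis) and by its log2 difference, limb minus duct (y axis). Coloured points passed the test and have bars of 1 SE, and the dashed line is the median of all miRNAs at −0.36. miR-31a-5p lies lowest at −4.22, and miR-375-3p is the only coloured point above 0.

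Among the 14, the largest differences belonged to miR-31a-5p, miR-9a-5p and miR-205, all higher in the collecting duct and all rare or at low levels in the limb. miR-31a-5p, a miRNA best known from epithelia and tumours, was at 21.4, 9.82 and 41.4 in the limb of rats 1, 2 and 3 and at 257, 457 and 536 in the duct. The lowest duct library stood well above the highest limb library. The difference was 18.7-fold on the log2(value + 1) scale, which understates the change of low miRNAs (log2 difference −4.22 ± 0.48 SE, limma adjusted p = 1.70e-14). The model gave miRNAs of like abundance 1 shared variance, and without that trend the adjusted p was 0.087.

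miR-205, which is typical of stratified and glandular epithelia, was at 17.2, 53.3 and 21.4 in the limb and at 122, 201 and 161 in the duct. Every duct library was above every limb library, and rat 2 had the highest value of both segments. The duct was 5.73-fold higher (log2 difference −2.52 ± 0.52 SE, limma adjusted p = 0.00021). miR-9a-5p, better known from neurons and their precursors, was at 5.74, 6.10 and 9.76 in the limb and at 57.1, 69.3 and 50.3 in the duct. Its limb values rest on an estimated 7, 15 and 74 reads. The duct was 8.62-fold higher (log2 difference −3.11 ± 0.73 SE, limma adjusted p = 0.0011). In RefSeq the miR-31 hairpin lies at chr5:108714849-108714954 on the minus strand and that of miR-205 at chr13:107564535-107564642 on the minus strand, neither inside a protein-coding gene. miR-9a-5p has 3 precursor genes, so its source locus cannot be told from the mature sequence.

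**Figure D2:**
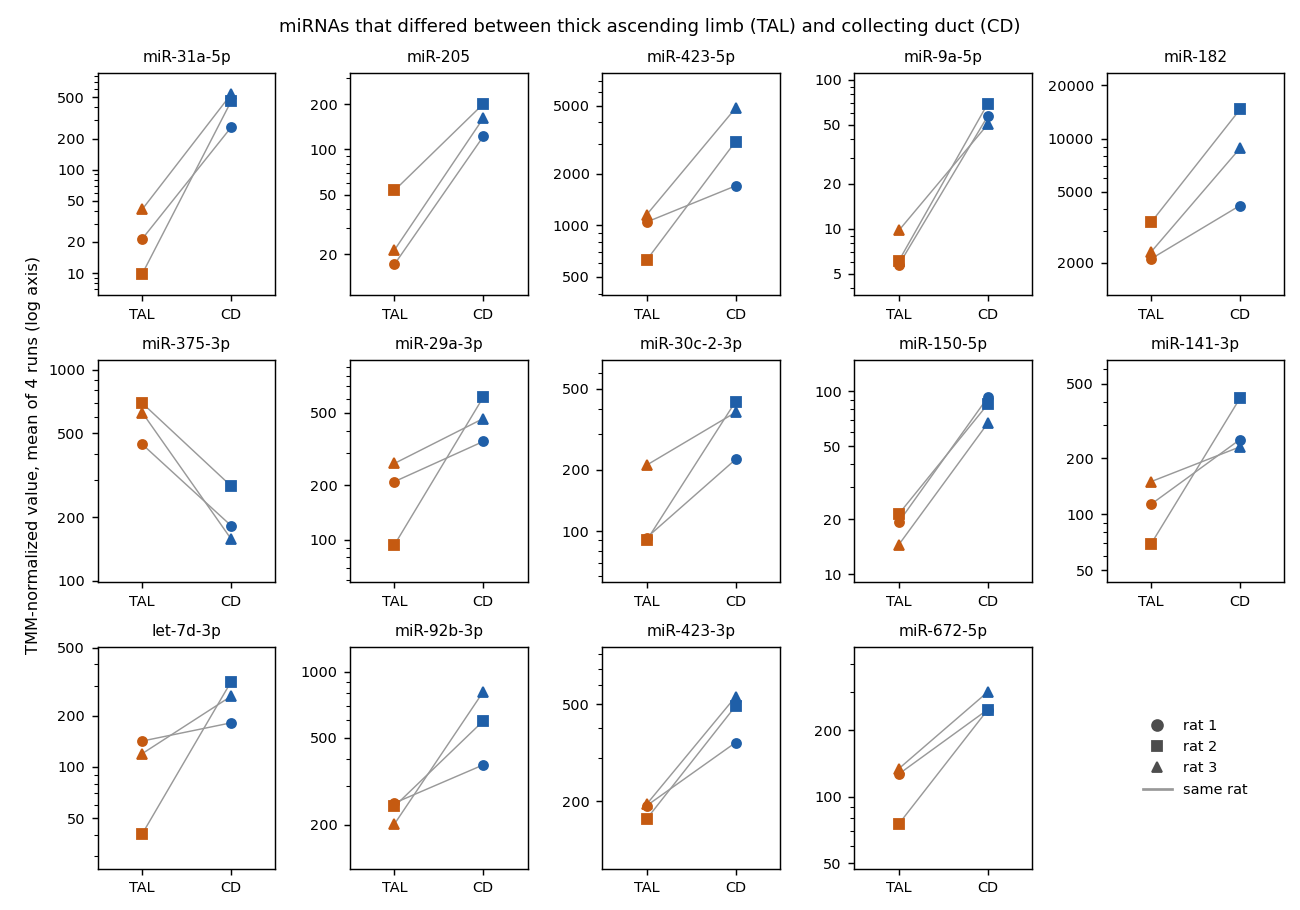
Each panel shows 1 of the 14 miRNAs that passed the test, with the TMM-normalized value of the limb (orange) and duct (blue) libraries on a log axis. A grey line joins the libraries of 1 rat, and the symbol gives the rat. The segments do not overlap in any panel, and miR-375-3p is the only miRNA that falls from limb to duct.

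miR-182, from the sensory-organ cluster of miR-183, miR-96 and miR-182, was the only miRNA among the 10 most abundant to pass the test. It was at 2101, 3373 and 2299 in the limb and at 4192, 14580 and 8811 in the duct. No library overlapped, although the duct values spread more than 3-fold among the rats. The duct was 3.21-fold higher (log2 difference −1.68 ± 0.40 SE, limma adjusted p = 0.0013). As a share of all summed values miR-182 took 1.91% ± 0.873 in the limb and 4.23% ± 1.76 in the duct (SD, n = 3 rats each).

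miR-96-5p, from the same precursor region, had 2.21, 6.58 and 5.60 in the limb and 6.81, 28.4 and 49.6 in the duct. The libraries did not overlap, but the lowest duct value was close to the highest limb value, and the difference did not pass the test (log2 difference −2.24 ± 0.87 SE, limma adjusted p = 0.089). miR-3553 had 94.7, 175 and 130 in the limb and 162, 525 and 288 in the duct, with the rat 1 duct library inside the range of the limb (adjusted p = 0.066). RefSeq places miR-3553 on the strand opposite to miR-183-5p, which the table does not name. The shared stretch is in capitals.
miR-3553: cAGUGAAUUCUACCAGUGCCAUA
miR-183-5p: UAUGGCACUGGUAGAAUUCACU
The capitals are reverse complements of each other over 22 bases. Elsewhere in the table, 4 pairs of miRNAs had the same value in all 44 runs, and all 4 are such opposite-strand pairs, for example let-7a-5p with miR-3596a and miR-210-3p with miR-3574. Reads of opposite strands can therefore not be told apart for these 4 pairs. In 2 further opposite-strand pairs of the table the values differed: miR-125b-5p averaged 214 and miR-3588 217 over the 6 libraries, and miR-130a-3p averaged 187.8 and miR-3590-5p 2.32. Whether miR-3553 holds reads of the other strand was not tested. Among the 14, miR-31a-5p, miR-9a-5p and miR-29a-3p also have an opposite-strand partner in RefSeq (miR-31b, miR-9b-3p and miR-3556a), none of which is in the table.

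The miR-200 family maintains the epithelial state by repressing Zeb transcription factors. Of all miRNAs, 66.5% were lower in the limb and 7.45% passed the test. The 5 measured members of this family were all lower in the limb than in the duct on average over the rats. Their median log2 difference was −0.78 against −0.36 for all miRNAs, and 1 of 5 passed the test. That member was miR-141-3p, at 113, 69.5 and 150 in the limb and at 251, 418 and 230 in the duct. The highest limb library was below the lowest duct library, and the gap was widest in rat 2. The duct was 2.74-fold higher (log2 difference −1.45 ± 0.43 SE, limma adjusted p = 0.015). miR-200b-3p had a log2 difference of −0.78 ± 0.40 SE (limma adjusted p = 0.29), miR-200a-3p of −0.98 ± 0.47 (adjusted p = 0.24) and miR-429 of −0.77 ± 0.42 (adjusted p = 0.36). In rat 3 they were not lower in the limb, with log2 differences of 0.13, 0.18 and 0.03 in that order. Rat 2 had −1.59, −2.34 and −1.89, and its median over all miRNAs was −0.98.

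Both arms of the miR-423 hairpin were higher in the duct, the only hairpin with both arms past the test. miR-423-5p was at 1047, 628 and 1155 in the limb and at 1701, 3087 and 4834 in the duct. miR-423-3p was at 191.8, 169 and 194.6 in the limb and at 348, 491 and 536 in the duct. For both arms all duct values exceeded all limb values, and rat 1 showed the smallest gap. The duct was 3.22-fold higher for the 5p arm (log2 difference −1.69 ± 0.38 SE, limma adjusted p = 0.00067) and 2.43-fold higher for the 3p arm (−1.28 ± 0.40, adjusted p = 0.023). RefSeq places the hairpin at chr10:62412272-62412350, within the span of Nsrp1, a gene for a splicing-related protein.

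miR-29a-3p represses collagens and other matrix genes. Its values were 209, 93.8 and 263 in the limb and 348, 611 and 466 in the duct, without overlap and with the widest gap in rat 2 (log2 difference −1.42 ± 0.40 SE, limma adjusted p = 0.013). The near-copy miR-29c-3p was far less abundant, at 8.82 ± 3.17 in the limb and 21.9 ± 3.78 in the duct (SD, n = 3 rats each), and its difference of −1.28 ± 0.80 SE did not pass (adjusted p = 0.45). miR-29b-3p was close to the detection limit, with 2.62 ± 2.12 and 3.35 ± 3.88.

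The miR-25/92 seed AUUGCAC showed a different value in each of its 3 members. miR-92b-3p was at 252, 243 and 202 in the limb and at 376.01, 597 and 811 in the duct, 2.44-fold higher in the duct (log2 difference −1.29 ± 0.39 SE, limma adjusted p = 0.018). All limb values lay within a narrow range below the duct values. miR-25-3p had a log2 difference of −0.58 ± 0.42 SE (adjusted p = 0.52) and miR-92a-3p of 0.10 ± 0.55 (adjusted p = 0.95). miR-92b has a locus of its own, at chr2:176931653-176931735, whereas miR-25 lies in Mcm7. The differences between these members were not tested.

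miR-30c-2-3p is the arm opposite to miR-30c-5p, which belongs to the miR-30 family of abundant renal miRNAs. It was at 92.9, 90.1 and 211.1 in the limb and at 225, 433.05 and 384 in the duct, where the highest limb library nearly reached the lowest duct library (log2 difference −1.46 ± 0.42 SE, limma adjusted p = 0.013). miR-30c-1-3p, with the same seed but from another hairpin, had a log2 difference of 0.59 ± 0.65 SE (adjusted p = 0.72). Of the 9 measured miR-30 arms 1 passed the test, 7 were lower in the limb, and the median was −0.37, near the median of all miRNAs.

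let-7d-3p, the opposite arm of let-7d, had 142, 40.5 and 120 in the limb and 181, 316 and 260 in the duct. The libraries did not overlap, and rat 2 carried most of the gap, with a log2 difference of −2.95 against −0.38 in rat 1 and −1.11 in rat 3 (limma adjusted p = 0.015 over the 3 rats). The 9 measured miRNAs with the let-7 seed GAGGUAG, which restrain growth genes in differentiated cells, were all lower in the limb, between −1.04 and −0.06, and none passed the test. let-7e-5p came nearest. It was at 511, 581 and 713 in the limb and at 1174, 1270 and 1232 in the duct, with every duct value above every limb value (log2 difference −1.04 ± 0.38 SE, limma adjusted p = 0.066).

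miR-672-5p was at 127, 75.3 and 134.2 in the limb and at 249, 248 and 299.1 in the duct. The groups did not overlap, and its adjusted p of 0.041 by limma was the closest to the threshold of the 14 (log2 difference −1.29 ± 0.43 SE). RefSeq places it at chrX:73192304-73192383, within the span of Nexmif. miR-150-5p, a miRNA of mature lymphocytes, was at 19.3, 21.4 and 14.5 in the limb and at 92.4, 84.8 and 66.8 in the duct. Its log2 differences of −2.17, −1.96 and −2.12 in rats 1, 2 and 3 were nearly the same (4.24-fold higher in the duct, limma adjusted p = 0.013).

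The leukocyte list had 3 of its 5 names in the table, and the summed value of these 3 was 25.1 to 43.3 in the limb and 90.7 to 123 in the duct. miR-150-5p averaged 18.4 of it in the limb and 81.3 in the duct. miR-155-5p, at 0, 0 and 4.23 in the limb and 5.62, 5.12 and 17.7 in the duct, did not pass the test (adjusted p = 0.24). miR-142-5p, a general blood-cell miRNA, averaged 14.5 ± 10.4 in the limb and 14.97 ± 9.65 in the duct (SD, n = 3 rats each). The table does not name miR-142-3p or miR-223-3p. The part of leukocytes in the miR-150-5p difference was not tested, and in captured tissue more cells of a type and more RNA per cell cannot be told apart.

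In the other direction, miR-375-3p, known from endocrine and secretory epithelial cells, was the only miRNA higher in the thick ascending limb. It was at 444, 696 and 628 in the limb and at 182.2, 281 and 158 in the duct. The lowest limb library stood above the highest duct library. The limb was 2.87-fold higher (log2 difference 1.52 ± 0.40 SE, limma adjusted p = 0.0045), with 1.27, 1.31 and 1.99 in rats 1, 2 and 3. Its hairpin is at chr9:83906582-83906656 on the minus strand.

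Several other miRNAs leaned toward the limb without passing the test. miR-181c-5p was at 509, 261 and 648 in the limb and at 294, 260 and 102 in the duct. Rat 2 showed no gap, and the ranges overlapped (log2 difference 1.16 ± 0.40 SE, limma adjusted p = 0.052). miR-203a-3p, an inhibitor of the proliferative state in skin epithelium, was at 26.1, 14.1 and 52.0 in the limb and at 0, 11.5 and 15.96 in the duct, with overlapping ranges (2.23 ± 0.83, adjusted p = 0.071). miR-203b-3p averaged 8.93 in the limb and 3.22 in the duct (0.91 ± 1.03, adjusted p = 0.73). The list of miR-375 and miR-203 thus had 3 of 3 members higher in the limb, and 33.5% of all miRNAs were higher there. It was chosen with earlier results of these data known. Its median of 1.52 is the value of miR-375-3p, the 1 member past the test. Over all miRNAs, 0.532% passed as higher in the limb.

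miR-489-3p had 14.2, 2.18 and 11.1 in the limb and was at 0 in all 12 duct runs. Against a floor of 3 reads over the duct runs, equal to a value of 0.287, the limb was at least 31.9-fold higher, from an estimated 24, 7 and 84 reads (limma adjusted p = 0.080). miR-653-5p was likewise at 0 in the duct, and at 0.534, 1.74 and 9.11 in the limb (limma adjusted p = 0.52). RefSeq puts both on chromosome 4 within the span of Calcr, the gene of the calcitonin receptor, miR-489 at chr4:32648039-32648144 and miR-653 at chr4:32647398-32647494. The other arm, miR-653-3p, was at 9.09, 3.75 and 8.35 in the limb and at 14.2, 7.90 and 0 in the duct (log2 difference 0.44), and the difference between the arms was not tested. miR-489-3p, miR-653-5p and miR-192-5p were picked for description after their values were seen.

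miR-192-5p, the hallmark miRNA of the proximal tubule, was at 2146, 4246 and 3401 in the limb and at 1238, 2298 and 1837 in the duct. The ranges overlapped, with rat 2 high and rat 1 low in both segments, and the log2 differences within rats were 0.79, 0.88 and 0.89. On the deposited scale it did not pass (log2 difference 0.85 ± 0.38 SE, limma adjusted p = 0.18). With every library at the same total the difference was 1.40 with an adjusted p of 1.08e-06, and with the median of ratios 1.34 with 2.60e-06. In the proximal tubule it was at 22626 ± 2930 (SD, n = 3). The summed value of the proximal tubule markers miR-192-5p, miR-194-5p and miR-204-5p was 2197 to 4310 in the limb and 1282 to 2376 in the duct. The part of captured proximal tubule in this difference was not tested. Both rescalings added the same 8 limb-higher miRNAs to miR-375-3p: miR-192-5p, miR-181c-5p, miR-203a-3p, miR-489-3p, miR-3557-5p, miR-146a-5p, miR-16-5p and miR-30e-3p.

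**Figure D3:**
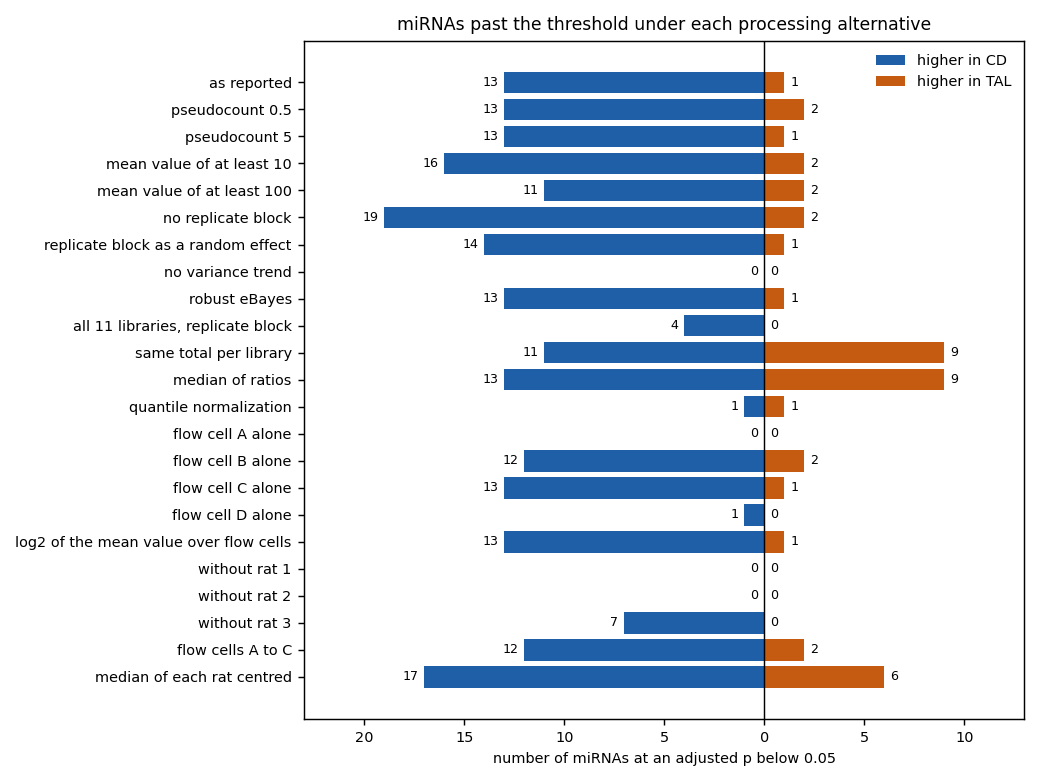
Bars show how many miRNAs passed an adjusted p below 0.05 in limma under each processing alternative, to the left for those higher in the duct and to the right for those higher in the limb. The deposited scaling gave 13 and 1, the same total per library 11 and 9, and the fit without a variance trend 0 and 0.

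Of the 10 most abundant miRNAs, miR-182 passed the test and the other 9 did not. miR-10a-5p, from a Hox gene cluster, made up 49.2% ± 0.687 of the summed values in the limb and 47.0% ± 3.39 in the duct (SD, n = 3 rats each). Its log2 difference was −0.47 ± 0.58 SE (limma adjusted p = 0.74), and with the same total per library it was 0.07. miR-22-3p had a difference of −0.86 ± 0.45 SE, miR-26a-5p of −0.75 ± 0.42 and miR-27b-3p of −0.75 ± 0.40, each with an adjusted p above 0.3. Every duct library was above every limb library for these 3 and for miR-125a-5p, among others of the 10. This was so for 25.5% of all miRNAs. miR-191a-5p, miR-143-3p, miR-30a-5p and miR-125a-5p lay between −0.65 and −0.44.

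miR-3557-5p was at 4549, 2506 and 5433 in the limb and at 2498, 3362 and 2579 in the duct, with overlapping ranges. Its log2 difference of 0.51 ± 0.39 SE did not pass (limma adjusted p = 0.53). As a share it was 2.84% ± 0.582 in the limb and 1.35% ± 0.0321 in the duct (SD, n = 3 rats each). It is the opposite-strand partner of miR-378a-3p, a miRNA encoded in Ppargc1b, a regulator of mitochondrial genes. The complementary bases are in capitals.
miR-3557-5p: gCCUUCUGACUCCAAGUCCAGU
miR-378a-3p: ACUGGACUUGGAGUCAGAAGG
The table does not name miR-378a-3p, while it does name miR-378a-5p, with the same value as miR-3557-3p in all 44 runs. Which strand the reads of miR-3557-5p came from was not tested.

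The signs within families are to be read against the 66.5% of all miRNAs that were lower in the limb. The miR-23/27/24 clusters, expressed in vessels and epithelia, had all 7 members lower in the limb with a median of −0.75 and 0 past the test. Their largest difference among the better measured arms was that of miR-27a-3p, at −1.08 ± 0.42 SE (limma adjusted p = 0.089). The miR-17/92 paralogs, which drive proliferation, had 1 of 10 past the test (miR-92b-3p) and a median of −0.21. The miR-15/16 family holds cells out of the cycle. All 5 arms on its list were higher in the limb with a median of 0.54, and 0 of 5 passed. That median is the value of miR-195-5p, at a mean of 4.27, and miR-195-3p on the list has another seed. miR-322-5p, which has the seed AGCAGCA of miR-16-5p but is not on the list, was lower in the limb, at −0.86. The most abundant listed member, miR-16-5p, differed by 0.15 ± 0.38 SE. The miR-181 family split, with 4 of 6 members higher in the limb and miR-181a-5p and miR-181b-5p lower, at −0.53 and −0.58. The median of the miR-181 family was 0.34.

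Of 9 miRNAs linked to kidney injury and hypoxia, 0 passed the test, and 1 of the 9 had an unadjusted p below 0.05 (miR-155-5p). Over all miRNAs, 7.45% passed the test and 17.0% had an unadjusted p below 0.05. miR-21-5p, raised in injured and fibrotic kidney, was at 492, 338 and 593 in the limb and at 522, 719 and 420 in the duct. The ranges overlapped, and the log2 difference was −0.23 ± 0.38 SE (limma adjusted p = 0.83). miR-210-3p, the main hypoxia-induced miRNA, was at 18.4, 9.33 and 17.0 in the limb and at 23.4, 42.0 and 22.4 in the duct (−0.97 ± 0.72, adjusted p = 0.52). Its values are identical to those of miR-3574 from the opposite strand.

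**Figure D4:**
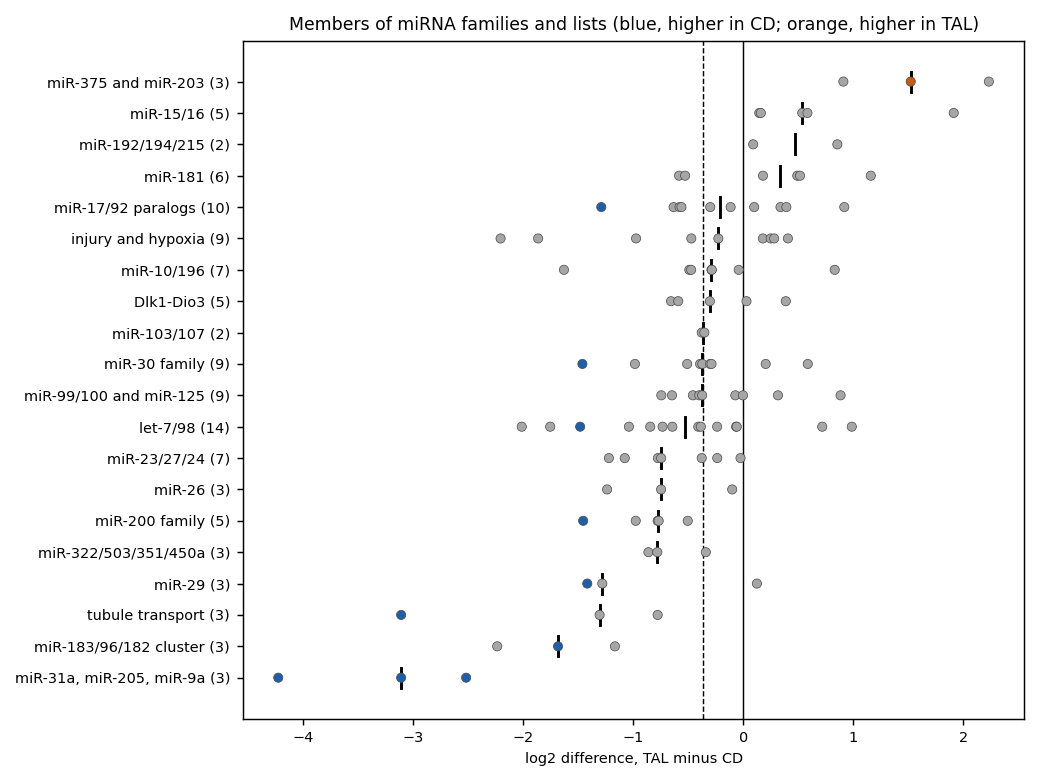
Each point is a member of the named family or list, placed by its log2 difference, limb minus duct, with the number of measured members in brackets. Blue and orange points passed the test, short black bars are list medians, and the dashed line is the median of all miRNAs at −0.36. The lists were chosen with earlier results of these data known, so their places are descriptions. The miR-31a, miR-205 and miR-9a list, with a median of −3.11, holds the largest differences among the 14. The median of the miR-183 cluster list, −1.68, is the value of miR-182.

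Markers of other cells of the kidney were also present in both segments. The endothelial miRNAs miR-126a-3p, miR-126a-5p and miR-221-3p summed to 1189 to 1651 in the limb and to 1982 to 3230 in the duct. All 3 were higher in the duct with no overlap of libraries, as were 25.5% of all miRNAs, and none of the 3 passed the test. The smooth muscle and mesangial miRNAs miR-143-3p and miR-145-5p summed to 4781 to 6094 in the limb and 6635 to 8080 in the duct. The mesenchymal miR-199a-3p and miR-199a-5p summed to 54.7 to 154.8 in the limb and 69.3 to 172 in the duct, with overlapping ranges and log2 differences of −0.32 and 0.28. The names of the red cell, skeletal muscle and liver lists are not in the table. The endothelial and smooth muscle sums lay in the same direction as the 13 duct-higher miRNAs and as the whole distribution. The median log2 difference was −0.85 for the endothelial list. For the smooth muscle list it was −0.37, near the −0.36 of all miRNAs. The part of these cells in the differences of the 13 was not tested.

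Seen in the rest of the nephron, most of the duct-higher miRNAs had their highest mean level in the duct. For 11 of the 13, the duct mean exceeded the proximal tubule mean and both glomerulus libraries. All 13 were selected as higher in the duct than in the limb. The share of all miRNAs with such a duct mean was not computed. Summed values reached 210782 at most in the proximal tubule and were 165055 and 77457 in the glomerulus libraries. Single libraries overlapped for some of the 11. For example, miR-182 was at 6072 in the proximal tubule of rat 3 and at 4192 in the duct of rat 1. miR-31a-5p was at 4.80 ± 2.15 in the proximal tubule (SD, n = 3) and was listed at 0 in both glomerulus libraries, and miR-92b-3p was at 63.3 ± 20.8 in the proximal tubule against 594 ± 217 in the duct. The exceptions were let-7d-3p, which was at 393 ± 20.8 in the proximal tubule and was lowest in the limb, and miR-150-5p, which was at 101 in the glomerulus library of rat 1. miR-375-3p was at 825 ± 521 in the proximal tubule, a range that spans the limb values. These orders are descriptions, with no test.

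**Figure D5:**
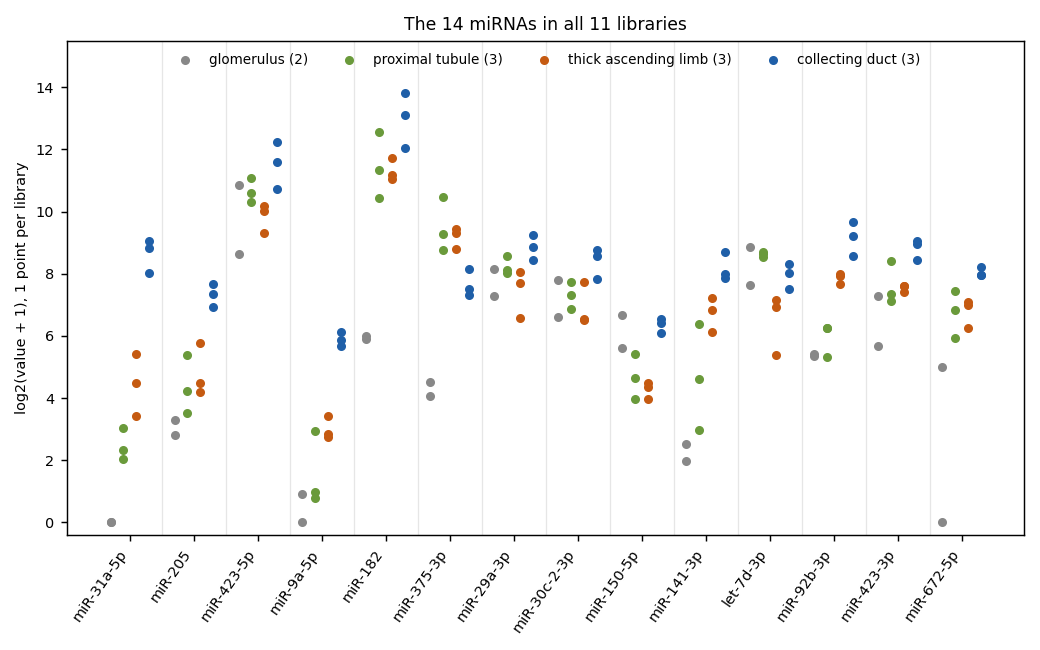
Each point is the mean of 4 runs of 1 library, as log2(value + 1), for the 14 miRNAs in the captured segments: glomerulus, proximal tubule, limb and duct. The limb (orange) lies near the proximal tubule (green) for most of the 14, while miR-31a-5p, miR-9a-5p and miR-205 stand out in the duct (blue). For miR-92b-3p the limb lies between the proximal tubule and the duct.

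The test rests on 3 rats. In limma without the trend of variance with abundance 0 miRNAs passed, and 24 had an unadjusted p below 0.05. Without rat 1 there were 0 (13 unadjusted), without rat 2 also 0 (29 unadjusted), and without rat 3 there were 7, all higher in the duct. The median half-width of the 95% interval of a log2 difference was 0.79 for the 65 miRNAs with a mean value of at least 100. It was 2.15 for the 64 below 10. These intervals are not adjusted for the number of miRNAs, so the differences needed to pass the test were larger. The smallest difference to pass was −1.28 (miR-423-3p), while −1.17 (miR-3553) did not pass.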

How the data were processed

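The authors deposited a TMM-normalized signal for 188 mature miRNAs in 44 runs, filtered for low counts per the name of the table. Partek 6.0, Bowtie2 2.2.5, Bowtie 1.0.0 and the build rn6 stand in the submitters' processing notes. No rescaling was applied to the main result. Low values lay mostly on multiples of 1 step, taken as 1 read: 88.3% to 99.0% of those at or under 30 reads came out whole to within 0.03, so whole reads were not recovered, no count test was run, and read numbers are estimates. Where a segment had 0 in all its runs, 3 reads over those runs served as the floor, which covers counting error only.

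Means of log2(value + 1) over the 4 runs of each library were fitted in limma 3.58.1 (R 4.3.3; lmFit, eBayes with a variance trend) on the 6 libraries, with segment and rat as terms, two-sided, adjusted over 188 miRNAs at 0.05. The prior degrees of freedom were infinite, so miRNAs of like abundance share 1 variance. The pairing comes from the animals: libraries of 1 rat share its kidneys. Their deviations from the segment means correlated at 0.31, 0.16 and −0.14 in rats 1, 2 and 3. Between libraries of different rats the correlations were −0.33 to 0.19. With the rat as a random effect the fitted correlation within a rat was −0.31, so a positive likeness within rats was not seen. Means are over rats with SD. Named are all miRNAs past the threshold, the 10 most abundant, the 5 nearest the threshold and list members. The comparison, members and lists were chosen with earlier results of these data known. Sequences and hairpin positions are from RefSeq, matched by name.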

Additional observations from a re-analysis of the deposited data

How the results depend on the processing

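The direction of each of the 14 miRNAs was the same under every alternative run. With the same sign in 3 of 3 rats, leaving out 1 rat could not have turned it. The other alternatives refit the libraries by which the 14 were selected. miR-31a-5p passed the threshold in 18 of 22 alternatives and miR-672-5p in 10 of 22, the lowest number of the 14. Without the pairing, with no replicate block, 21 miRNAs passed, 2 higher in the limb and 19 in the duct, all 14 among them. Without a variance trend 0 passed in either direction (24 at an unadjusted p below 0.05), with flow cell A alone 0 (25 unadjusted), with flow cell D alone 1, higher in the duct and 0 in the limb, and in the fit of all 11 libraries 4, all higher in the duct and 0 in the limb. Leaving out 1 rat gave 0 to 7 in all, 0 in the limb, 0 to 7 in the duct, and a median log2 difference between −0.62 and −0.07. The limb-higher number was 2 with a pseudocount of 0.5, with a mean of at least 10 or at least 100, and with flow cell B alone. Scaling turned the median over all miRNAs above 0: 0.15 with the same total (20 passed, 9 higher in the limb), 0.10 with the median of ratios (22, 9 in the limb) and 0.066 with quantile normalization (2 passed, 1 in each direction). After seeing the data 2 alternatives were added: flow cells A to C, with 2 higher in the limb, and each rat centred on its median, with 23 passing, 6 higher in the limb, and a median of 0.0081. Among miRNAs that did not pass, the same total turned miR-10a-5p to 0.068, miR-143-3p to 0.097, miR-191a-5p to 0.038 and miR-30a-5p to 0.032. The median of ratios turned miR-10a-5p to 0.012 and miR-143-3p to 0.040, and quantile normalization turned miR-143-3p to 0.28 and miR-30a-5p to 0.060. Of the other values of named miRNAs under the alternatives, 475 kept their direction and side of the threshold, 103 lost the call and 25 gained one. The cause of these changes was not tested.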

Other observations

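The arms of a hairpin gave a second view of the segments. Among names matched to RefSeq, 33 hairpins had both arms in the table, and 23 pairs had log2 differences of the same sign. That number is to be read against the 66.5% of all miRNAs that were lower in the limb. Spearman's rho between the arms was 0.40 over these 33, which share libraries and scaling. The minor arms of let-7d, let-7b, miR-10a and miR-30a each leaned more to the duct than the major arm: let-7b-3p had a log2 difference of −1.75 and let-7b-5p of −0.64, and miR-10a-3p had −1.63 against −0.47 for miR-10a-5p. The minor arms of let-7a and let-7c went the other way, with 0.99 for let-7a-1-3p and 0.72 for let-7c-2-3p, both at mean values under 2. Differences between arms were not tested.

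Base composition moved little with the segment. The 11 duct-higher miRNAs with a sequence had a median GC content of 50%, against 45.5% for the 160 that did not pass. Spearman's rho between GC content and the log2 difference was −0.18 over 172 miRNAs and −0.08 over the 110 with a mean of at least 10. Of 23 groups of neighbouring hairpins on 1 strand, each within 10 kb of the next, 11 had all measured members on the same side of 0 and 12 did not. miR-182 and miR-96-5p were at −1.68 and −2.24, and the 4 measured arms of the miR-23b/27b/24-1 cluster at −0.02 to −1.22. The miR-17/92 cluster was mixed, from 0.39 for miR-17-5p to −0.30 for miR-20a-5p. In the miR-29a/29b-1 cluster miR-29a-3p was at −1.42 and miR-29b-3p, which also comes from a second locus, at 0.12.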
